A study of Homo sapiens with 3 samples.

Results

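The transcripts described here are those of 6 genes, MCL1, JUN, CDKN1B, GADD45A, MYC and CCND1, out of 20037 protein-coding genes encoded in the nucleus. They were chosen by name, as messenger RNAs with AU-rich sequence or a role in cell cycle checkpoints that have been described as bound or regulated by HNRNPA0 or related proteins. Their peaks were found by the Ensembl gene ID carried in each peak's name, and they came to 29 of 48938 distinct peaks, of which 21 lay in MCL1 and 8 in JUN. CDKN1B, GADD45A, MYC and CCND1 had no peak in any replicate.

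The data come from easyCLIP, in which ultraviolet light bonds RNA to protein inside cells and the RNA that stays with one protein after purification is trimmed and sequenced. All 3 replicates form a single group of HEK293T cells, a transformed line derived from human embryonic kidney, labelled wild type. Cells in a 15 cm plate received 750 ng of plasmid that expresses HNRNPA0 with an HA tag, and were irradiated at 254 nm (0.3 J/cm2) and harvested the following day. The protein captured is therefore a tagged copy made from a vector, in cells that keep their own HNRNPA0 gene, and no library from untransfected cells or from another antibody was used here. The labels do not say whether the replicates came from separate cultures, so the SD between them may be technical. None of 10 marker genes of tissues other than kidney, among them ALB of liver and PTPRC of blood cells, held a peak. Only 27.9% of all protein-coding genes held one, so these 10 genes are no check of what the cells are.

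AU-rich elements are stretches of adenine and uridine, built around repeats of a short uridine core and mostly found near the 3' end of messenger RNAs that the cell makes in bursts and destroys quickly. Proteins that land on them decide how long the message lasts: ZFP36 and KHSRP recruit the enzymes that shorten the poly(A) tail, ELAVL1 protects the message, and HNRNPD can do either. HNRNPA0 belongs to the hnRNP A/B family, binds AU-rich messages of inflammation, and is a substrate of the stress kinase MAPKAPK2. After DNA damage in cells that lack p53 it has been described as holding the messages of CDKN1B and GADD45A stable, which lets the cell keep its checkpoints. The labels name no drug treatment of the cells measured here, which met ultraviolet light at the crosslinking step.

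A peak in these lists is a stretch of RNA with more reads than the authors' peak caller expected, and the whole number at the end of its name is taken as the number of reads in it and called the read number. No column of the lists names that value. Peaks of different replicates under 1 gene ID that overlapped by 1 bp or more were merged into a region. Distinct peaks numbered 15661, 15486 and 17791 in replicates 1, 2 and 3, and nuclear-encoded peaks summed to read numbers of 100038, 99141 and 114203. Every list had a lowest read number of 3, so a gene without a peak may still have had reads, and a missing peak is no measurement of zero. RNA levels were not measured, so less binding and less RNA cannot be told apart for any of the genes below.

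Of the 6 genes, 2 had a peak in any replicate, against a background of 27.9% of all protein-coding genes. Among the 5302 protein-coding genes whose interval spans 3000 to 14000 nt, the size range that holds all 6, the background was 14.5%. Of the members, 1, MCL1, held a region found in all 3 replicates, where 5.99% of all protein-coding genes and 3.49% of those in that size range did. Both MCL1 and JUN had a peak in each of the replicates, as did 14.2% of all protein-coding genes. The members are few and were chosen with earlier results of these data known. These counts are therefore descriptions, and nothing particular to the set is read from them.

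MCL1 encodes a short-lived member of the BCL2 family that holds back mitochondrial cell death. Its interval, chr1:150574558-150579610 on hg38, is 5053 bp long and carried its peaks on the minus strand, so its 3' end is at the lower coordinate. Replicates 1, 2 and 3 held 8, 7 and 6 MCL1 peaks. Their summed read numbers were 94, 76 and 73, a mean of 81.0 ± 11.4 (SD, n = 3). As a share of all nuclear-encoded read numbers this was 0.0940%, 0.0767% and 0.0639%, or 0.0782% ± 0.0151 (SD, n = 3). Replicate 1 was the highest by sum and by share, yet the single highest peaks ran the other way, with read numbers of 17, 19 and 24 in replicates 1, 2 and 3.

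The 10 merged regions of MCL1 lay between its 3' end and a point somewhat past the middle of the gene. The one nearest the 3' end began 41 nt from it, and the farthest reached 2920 nt. The remaining 2132 nt up to the 5' end, 42.2% of the interval, held no peak in any replicate. Peaks covered 472, 505 and 421 nt of the gene in replicates 1, 2 and 3, and 879 nt, 17.4% of the interval, when all replicates were joined. The 1000 nt at the 3' end held 37.2%, 51.3% and 57.5% of the summed read number of MCL1, a mean of 48.7% ± 10.4 (SD, n = 3). No exon annotation was used, so it is not known which of these positions are coding, untranslated or intronic.

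**Figure D1:**
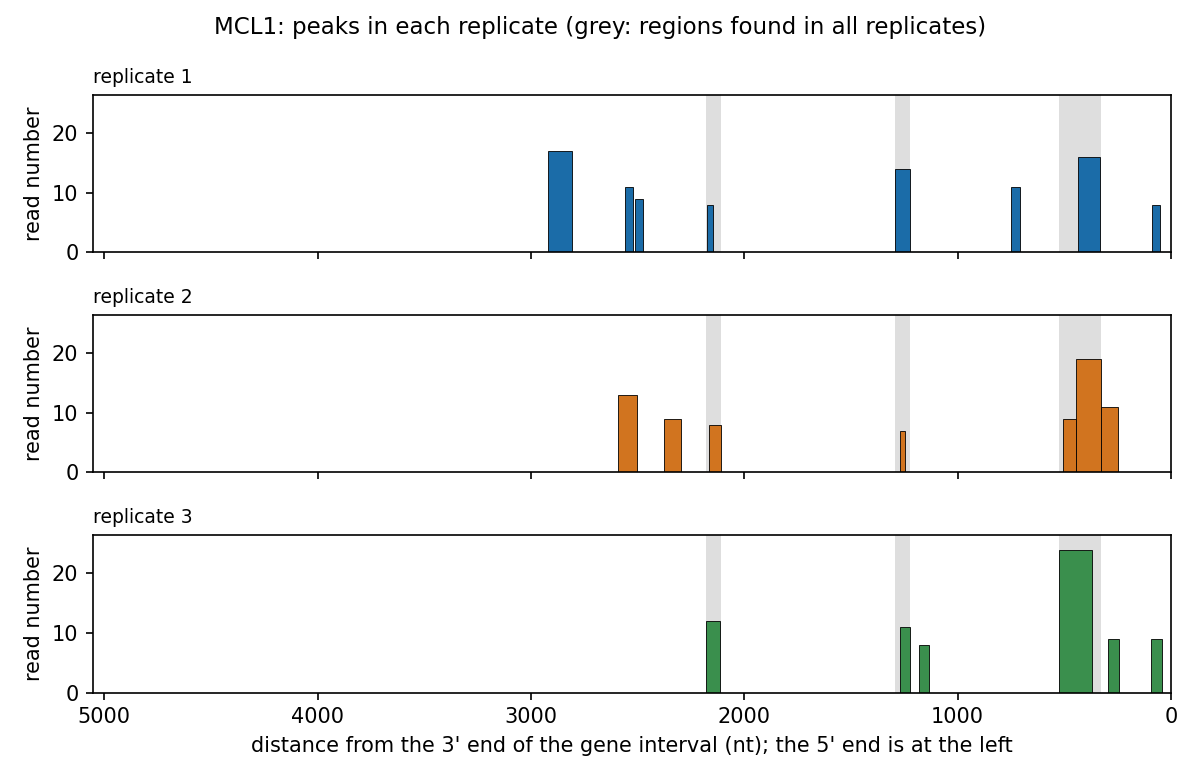
MCL1 peaks in each replicate, drawn as bars whose width is the peak and whose height is its read number, against the distance in nt from the 3' end of the gene interval. Grey bands mark the 3 regions found in all replicates, and no bar lies beyond 2920 nt, in the 5' part at the left.

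Of these 10 regions, 3 were found in all 3 replicates, 3 in 2 and 4 in 1, and 1.13% of all protein-coding genes, or 0.943% of those spanning 3000 to 14000 nt, held 3 or more regions found in all replicates. The first and strongest, chr1:150574884-150575081, lay 326 to 523 nt from the 3' end. Its highest peaks had read numbers of 16, 19 and 24 in replicates 1, 2 and 3, a mean of 19.7 ± 4.04 (SD, n = 3). Replicate 2 split this region into a pair of touching peaks, of 19 and 9, and a further peak of 11 touched it on the 3' side. The second, chr1:150575780-150575850, lay 1222 to 1292 nt from the 3' end and had read numbers of 14, 7 and 11, a mean of 10.7 ± 3.51 (SD, n = 3). The third, chr1:150576668-150576738, lay 2110 to 2180 nt from the 3' end with read numbers of 8, 8 and 12, a mean of 9.33 ± 2.31 (SD, n = 3).

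The strongest region was the highest of the 3 in every replicate, and the ranges of the other pair overlapped. Together the 3 regions held 40.4%, 56.6% and 64.4% of the summed read number of MCL1 in replicates 1, 2 and 3. When a shared region needed an overlap of 50% of both peaks, only the second of the 3 was kept. In the strongest region the peak of replicate 3, 155 nt wide, reached farther to the 5' side than the others.

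Each line of the lists also marks a core of a few nt inside the peak, and the cores show how closely the replicates placed a peak. In the second region the cores of the highest peaks lay 1256.5, 1258.5 and 1247.5 nt from the 3' end in replicates 1, 2 and 3, a spread of 11 nt. In the third they lay at 2158.5, 2137.5 and 2145.5 nt, a spread of 21 nt. In the strongest region they lay at 384.5, 394.5 and 463.5 nt, a spread of 79 nt between replicates 1 and 3. Over all 2501 regions found in all replicates the median spread was 22 nt, with quartiles of 12 and 45 nt, and 10.1% had a spread of 79 nt or more. The spread was thus below the median in the second region and above it in the strongest. A wider region allows a larger spread: the second was 71 nt wide and the strongest 198 nt, against a median of 116 nt. The strongest also joins a pair of touching peaks of replicate 2, of which only the higher gave a core. The lower of that pair lay 445 to 503 nt from the 3' end, a stretch that holds the core position of replicate 3. Whether its peaks were placed more loosely was not tested.

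Outside the 3 shared regions the replicates differed. A region 41 to 91 nt from the 3' end, the closest to it, had read numbers of 8 in replicate 1 and 9 in replicate 3 and no peak in replicate 2. One at 241 to 325 nt had 11 in replicate 2 and 9 in replicate 3, and directly touched the strongest region. One at 2477 to 2593 nt had highest read numbers of 11 and 13 in replicates 1 and 2 and none in replicate 3. The largest peak seen once was that of replicate 1 at 2806 to 2920 nt, chr1:150577364-150577478, with a read number of 17. That peak was the highest of MCL1 in replicate 1, and neither of the other replicates had a peak there. The other peaks seen once had read numbers of 11 in replicate 1, 9 in replicate 2 and 8 in replicate 3.

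No weak peak was listed for MCL1. Its lowest read numbers were 8, 7 and 8 in replicates 1, 2 and 3. Among gene IDs with 6 or more peaks the median lowest read number was 3 in each list, and 6.24%, 6.70% and 4.43% of them had a lowest value of 7 or more. Those gene IDs were not matched to MCL1 in gene length or summed read number. Whether the lowest read number that can be listed differs between genes is not known. By the authors' p-value every MCL1 peak fell in the stricter 50% of its list. The best MCL1 peak of replicates 1, 2 and 3 had 12.3%, 8.28% and 5.46% of the list ahead of it, and the weakest had 26.0%, 32.8% and 24.3%.

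By summed read number MCL1 ranked 146 of 4680 nuclear-encoded gene IDs in replicate 1, 202 of 4665 in replicate 2 and 224 of 5054 in replicate 3. The median gene ID summed to 9 in each list. Per 1000 nt of gene interval its mean was 16.0 ± 2.25 (SD, n = 3), rank 34 of 5588 protein-coding genes with a peak. That scale favours short genes, since introns count as length.

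**Figure D2:**
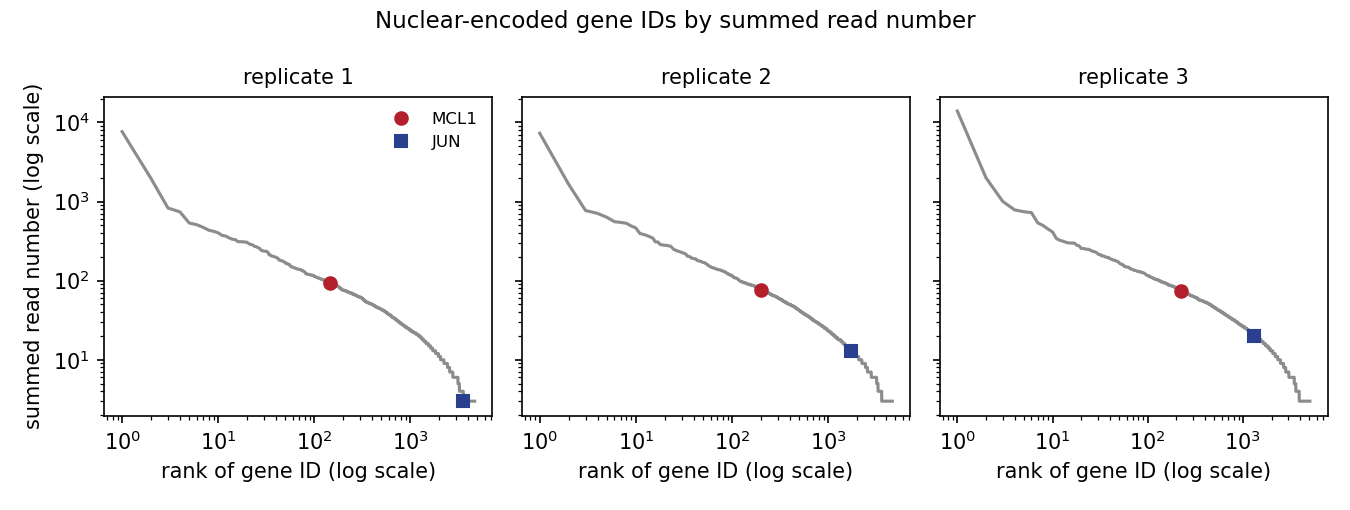
Summed read number of each nuclear-encoded gene ID against its rank in the 3 replicates, both on log scales, with MCL1 as a red circle and JUN as a blue square. MCL1 sits at ranks 146, 202 and 224, and JUN at 3559, 1716 and 1311.

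The genes with a pattern nearest to MCL1 were sought among the 109 other genes that also held exactly 3 regions found in all replicates, by Euclidean distance of summed read numbers on the log2(value + 1) scale over the 3 replicates. The nearest was DCAF7, a WD-repeat adaptor of ubiquitin ligases, with 90, 82 and 76 and a distance of 0.14. Next came SRSF6, an SR splicing factor, with 96, 75 and 85 and a distance of 0.22, and PBRM1, a subunit of a chromatin remodelling complex, with 86, 70 and 65 and a distance of 0.24. DCAF7 spans 43790 bp and PBRM1 140547 bp, while SRSF6, at 6348 bp, is close to MCL1 in size. Of the 106 protein-coding genes among them, 8 had a larger share of their read number than MCL1 in the 1000 nt at the 3' end, and the median share was 4.91%. Only 6 of the 106 were shorter than MCL1, with a median span of 40752 bp, and the part of gene length in that difference was not tested.

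JUN encodes a subunit of the AP-1 transcription factor, is switched on within minutes of a stimulus, and is made from a gene without introns. Its interval, chr1:58780791-58784047 on hg38, is 3257 bp long, and its peaks were on the minus strand. Replicates 1, 2 and 3 held 1, 3 and 4 peaks, with summed read numbers of 3, 13 and 20, a mean of 12.0 ± 8.54 (SD, n = 3). The highest peaks had read numbers of 3, 5 and 8. Each of these values lies below the lowest MCL1 value of the same kind, and the ranges of the pair do not overlap. Per 1000 nt of interval JUN had 0.921, 3.99 and 6.14, against 18.6, 15.0 and 14.4 for MCL1, so the order held with length taken into account. By its mean on that scale, 3.68, JUN ranked 198 of the 5588 protein-coding genes with a peak, whose median was 0.120. Both genes thus stood high on it, and the scale favours short genes.

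No region of JUN was found in all 3 replicates. Of its 7 regions, 1 was found in 2 replicates, chr1:58783187-58783272, which lies 2396 to 2481 nt from the 3' end and had read numbers of 3 and 4 in replicates 1 and 2. Of all protein-coding genes, 12.7% held a region found in 2 or more replicates. The other 6 regions were seen once, from 121 nt to 2656 nt from the 3' end, so that JUN peaks were scattered over most of the gene. The highest of them, chr1:58781626-58781746 in replicate 3, had a read number of 8 and lay 835 to 955 nt from the 3' end. The last 600 nt at the 5' end held no peak. Replicate 1 lists the JUN peak with index 1 and none with index 0, a gap that 21.4% of the gene IDs in that list share.

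**Figure D3:**
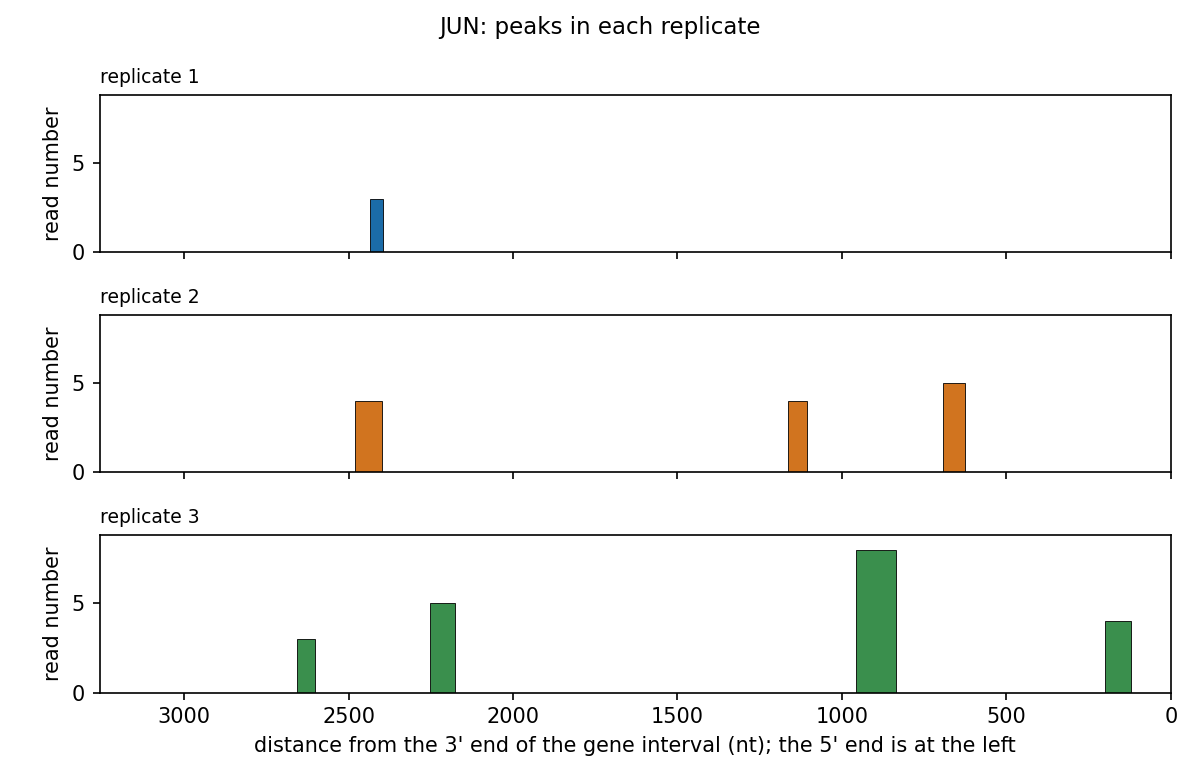
JUN peaks in each replicate, with the read number as bar height against the distance in nt from the 3' end of the gene interval. The peaks rarely coincide between replicates, and the only overlap is the one near 2396 to 2481 nt in replicates 1 and 2.

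In the authors' p-values the JUN peaks stood lower in the lists than those of MCL1. The peak of replicate 1 had 98.4% of its list ahead of it, and the best peaks of replicates 2 and 3 had 54.2% and 20.2%. In the stricter 50% of each list JUN had no peak in replicates 1 and 2 and 2 peaks in replicate 3.

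The 4 genes without a peak comprise the cell cycle brake CDKN1B, which inhibits cyclin-dependent kinases, the stress-induced GADD45A, the transcription factor MYC and CCND1, the D-type cyclin that starts the division cycle. CDKN1B covers 5002 bp at chr12:12717368-12722369 and GADD45A 3134 bp at chr1:67685201-67688334. MYC covers 7518 bp at chr8:127735434-127742951 and CCND1 13319 bp at chr11:69641156-69654474. None of these intervals held a peak on either strand under any gene ID, so the absence does not come from peaks named for an overlapping gene.

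Relatives of these genes, chosen after their values were seen, gave a mixed picture. CCND2, another D-type cyclin, had summed read numbers of 37, 39 and 47 in replicates 1, 2 and 3 and 1 region found in all replicates, while CCND3 had no peak. CDKN1A, the p53-induced relative of CDKN1B, had no peak in replicate 1 and summed read numbers of 3 and 9 in replicates 2 and 3, and CDKN1C had none. GADD45B, GADD45G, MYCN, MYCL, JUNB and JUND had no peak in any list.

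Of 32 further messages described as AU-rich, 3 had a peak in any replicate (9.38%) and none held a region found in all replicates, against 27.9% and 5.99% of all protein-coding genes and 14.5% and 3.49% of those spanning 3000 to 14000 nt. That size range was chosen to hold the 6 members and is not matched to these 32 messages. Their median summed read number was 0, as was that of all protein-coding genes. HIF1A, the oxygen-regulated transcription factor, had 7, 24 and 13 in replicates 1, 2 and 3. KLF6, a zinc finger factor, had 4, 0 and 7, and CDKN1A was the third. The 29 without a peak include the immediate early genes FOS and EGR1 and the cytokine genes TNF and IL6. Cytokine genes are normally silent outside stimulated cells, and the RNA level of these genes was not measured.

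Of the 15 other members of the BCL2 family, 4 had a peak (26.7%), close to the background of 27.9%, and none held a region found in all replicates. PMAIP1, whose protein binds MCL1, had summed read numbers of 9, 3 and 14 and 3 regions found in 2 replicates. BCL2L11, a cell death activator, had 12, 6 and 4 and 1 such region, and BMF and HRK had peaks in 1 replicate each. The gene ID of BCL2L2 was shared with a readthrough gene, and BCL2L2 stands among the 15 as a gene without a peak. In the MYC and AP-1 families 5 of 18 genes other than MYC and JUN had a peak (27.8%), again near the background, and none held a region in all replicates. MGA, a partner of MAX, had 7, 15 and 10, ATF2 had 8, 3 and 19, MXI1 had 3, 4 and 0, and the MYC partner MAX had 3, 0 and 0.

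Of 31 genes of the cell cycle and its checkpoints other than the members, 23 had a peak (74.2%) and 7 held a region found in all replicates (22.6%), with a median summed read number of 4. The background over all protein-coding genes was 27.9% and 5.99%. MDM2, the ubiquitin ligase of p53, held 5 such regions and summed read numbers of 69, 84 and 123. CDK6, the kinase partner of D-type cyclins, held 3 and had 94, 91 and 136. CDK1, the mitotic kinase, had 24, 25 and 28, TOPBP1, an activator of ATR, had 26, 39 and 22, and CLSPN, the adaptor that passes the signal to CHEK1, had 24, 19 and 11, with 1 region each. ATM, the kinase that senses DNA breaks, had 41, 41 and 44 over 12, 11 and 12 peaks and no region found in all replicates. MAPK14, the kinase upstream of MAPKAPK2, had 19, 22 and 19, CCNA2 had 12, 19 and 22 and RB1 had 7, 17 and 21, all without such a region. These sums are per gene and not per length, and many of the genes are far longer than the members.

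Of 27 genes for proteins that bind AU-rich elements or act in the decay of messenger RNA, 25 had a peak (92.6%) and 11 held a region found in all replicates (40.7%), with a median summed read number of 23.7. The background was again 27.9% and 5.99%, and the list was not adjusted for gene length. HNRNPA0 itself had 308, 358 and 340, which includes any RNA of the vector. HNRNPD, which encodes AUF1, had 122, 98 and 86 with 4 regions, and its relative HNRNPDL had 50, 33 and 41 with 3. PABPC1, the poly(A)-binding protein, had 105, 88 and 93, PCBP2 had 60, 72 and 72 and CNOT1, the scaffold of the deadenylase complex, had 29, 60 and 61, with 2 regions each. AGO2 had 47, 28 and 41, CELF1 40, 35 and 16, CNOT7 9, 36 and 28 and the SKI complex subunit gene TTC37 36, 10 and 25, all without a region found in all. ELAVL1, chosen after its values were seen, had a read number of 3 in each replicate, the lowest value in the lists.

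Genes for enzymes that mark the members' proteins for destruction, or spare them, gave 10 of 14 with a peak (71.4%) and 4 with a region found in all replicates (28.6%), with a median summed read number of 9. Over all protein-coding genes the shares were 27.9% and 5.99%, and long genes such as USP9X are in this list with no adjustment for length. USP9X, a deubiquitinase that stabilises MCL1, had 139, 207 and 199 and 3 regions. ITCH, a ligase of JUN, had 38, 34 and 37, SKP2, which targets CDKN1B, had 24, 23 and 29, and BTRC had 16, 10 and 14, with 1 region each. HUWE1, a ligase of MCL1, had 62, 60 and 88, and FBXW7, which targets MCL1, MYC and JUN, had 6, 11 and 23, both without such a region. COP1 had 23, 3 and 10 and AMBRA1, which targets D-type cyclins, 6 in each replicate.

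**Figure D4:**
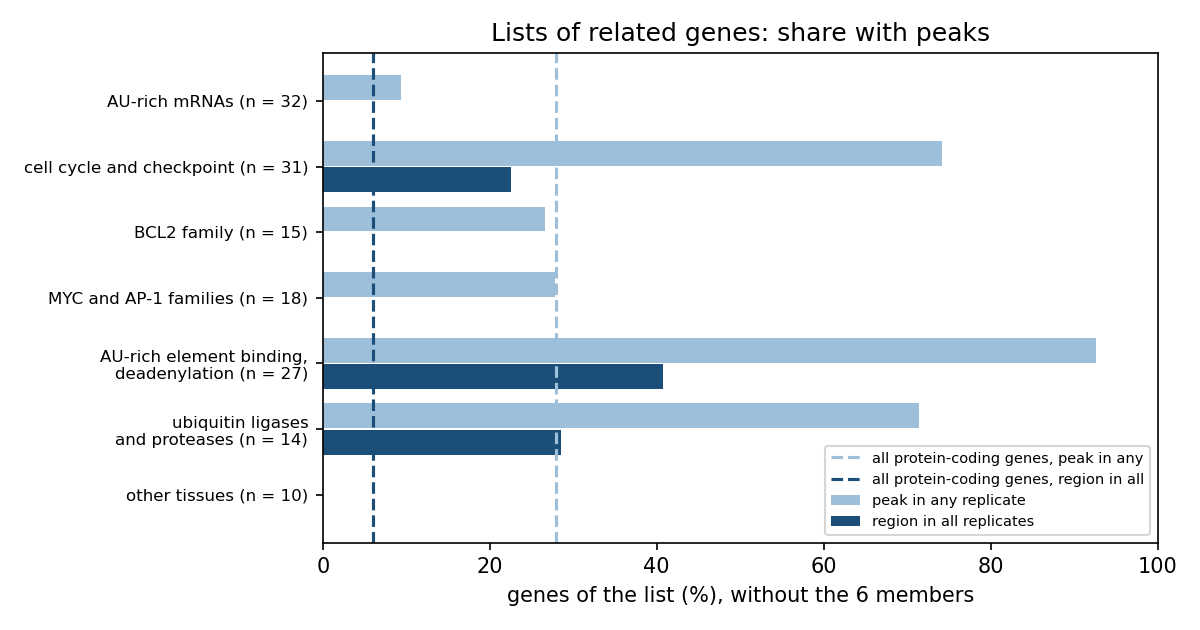
Share of the genes in each list of related genes, in percent and without the 6 members, that held a peak in any replicate (light bars) or a region found in all replicates (dark bars). Dashed lines mark the same shares over all protein-coding genes, 27.9% and 5.99%. The AU-rich messages and the genes of other tissues lie below both. The BCL2 family (26.7%) and the MYC and AP-1 families (27.8%) lie close to the first line and held no region found in all replicates. The lists for the cell cycle (74.2% and 22.6%), AU-rich binding and deadenylation (92.6% and 40.7%) and ubiquitin enzymes (71.4% and 28.6%) lie above both. The lists are small and not adjusted for gene length, and no difference was tested.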

How the data were processed

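Per the submitters' processing notes the lists, 1 per replicate, are on hg38, and bedtools and deepTools were used. Which aligner and peak caller made them, and how molecular identifiers were handled, is not given in the sources used here. The authors deposited a position, a strand, a p-value (all below 0.05) and a name with Ensembl gene ID, index and read number for each peak. Reads outside peaks were not analysed here, so no counting interval is given.

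Gene IDs were tied to RefSeq genes (GRCh38.p14) that held at least 90% of their peak centres: 6120 of 6583 to a single gene, 217 to several. Distances use RefSeq gene intervals. Sums, ranks and regions were computed per gene ID with Python 3.11.15 and pandas 2.3.3, with merging checked on simulated data. With 1 group and no control library, no test was run. The members and lists were chosen with earlier results of these data known. From each list up to 6 genes with a region in all 3 replicates and up to 4 with weaker peaks are named, by mean summed read number. A planned count of AU-rich motifs in peaks needed a genome and was not run.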

Additional observations from a re-analysis of the deposited data

How the results depend on the processing

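Of 94 values recomputed under alternative settings, 75 kept within 1.5 times the count, or within 1 SD of the value, of the main setting. Some of the 75 could not change. The genes of other tissues had no peak to begin with. Every MCL1 peak lay in the stricter 50% of its list and had a read number of 7 or more. Those filters therefore could not alter its regions, its highest read number or its share at the 3' end. With regions in 2 or more replicates, 2 members held one and MCL1 held 6. The lists then came to 19 genes for AU-rich binding and deadenylation, 15 for the cell cycle and 7 for ubiquitin enzymes. Members counted, there were 3 AU-rich messages, 3 BCL2 family genes and 2 MYC and AP-1 genes, where the main setting gave 1, 1 and 0. Without the 6 members there were 1, 2 and 1 such genes. With an overlap of 50% of both peaks MCL1 held 1 region. The share of MCL1 was 0.104% in the stricter 50% of each list and 0.115% with read numbers of 5 or more, where 2 ubiquitin enzymes held a region. With 1 replicate left out a region needed both of the others, and 1 to 2 members then held one. With members counted, so did 1 to 2 AU-rich messages, 1 to 3 BCL2 family genes and 0 to 2 MYC and AP-1 genes. So did 10 to 12 cell cycle genes, and MCL1 was among the AU-rich and BCL2 family genes each time. Without replicate 3 the second member was JUN, which then also counted in the AU-rich and the MYC and AP-1 lists. Without replicate 1 there were 12 cell cycle genes. No paired analysis was possible because there is a single group. Depth limits the absences, since no peak with a read number below 3 was listed.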
